A study of Mus musculus with 8 samples.

Results

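Islets of Langerhans are small clusters of hormone-secreting cells that sit inside exocrine tissue, and RNA of the acinar cells around them can be recovered together with islet RNA. The 8 islet libraries of this series were set against each other by their acinar RNA: 5 libraries with more than 15% of their counts on acinar enzyme genes (here exocrine-rich) and 3 libraries with less than 6% (exocrine-poor). The members of each class were chosen by this measured share, so the acinar genes themselves are described here with no test. The classes are not groups of the study, whose own contrast is the genotype.

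RNA had been sequenced from islets picked by hand from mice aged 8 weeks, 4 wild-type C57BL/6 mice (WT1 to WT4) and 4 mice on that background in which Rpl13a introns no longer encode the snoRNAs U32a, U33, U34 and U35a (KO1 to KO4), 1 library per mouse. The exocrine-rich class holds 2 wild-type libraries (WT1 and WT3) and 3 knockout libraries (KO1, KO3 and KO4). The exocrine-poor class holds 2 wild-type libraries (WT2 and WT4) and 1 knockout library (KO2). Nothing in the labels ties the acinar RNA of a library to a treatment, a date or a person picking. Assigned counts were 21235196 to 41148318 per library. The 4 targeted snoRNAs had 7, 1, 5 and 2 counts in WT1 to WT4 and 0 in every knockout library, where a count of 0 allows up to 3 counts. Xist, the RNA of the inactive X chromosome, was high in KO1 and KO4 (11458 and 20491 counts) of the exocrine-rich class and in WT4 (20935 counts) of the exocrine-poor class, and at or below 158 counts in the other 5.

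Acinar cells make and store the digestive enzymes of the gut, among them proteases secreted as inactive zymogens, lipases, amylase and nucleases. A complex of the transcription factors Ptf1a and Rbpjl drives enzyme genes in these cells, and Bhlha15 (Mist1) shapes their secretory apparatus. Islets prepared from a digested pancreas carry variable amounts of acinar tissue, and in bulk RNA fewer cells of a type and less RNA per cell cannot be told apart.

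One library stood apart in another way. KO2, the only exocrine-poor knockout library, held RNA of liver genes: Alb, the serum albumin gene, had 85706 counts there and 59 to 172 counts in each of the other 7 libraries. Apoa1, an apolipoprotein gene of liver and gut, had 12105 counts in KO2 and at most 7 elsewhere, and Serpina1a, an antitrypsin gene, had 7208 counts in KO2 and at most 7 elsewhere. The hepatocyte list of 23 genes took 1.07% of the counts of KO2 and 0.0203 to 0.0455% of the counts of the other libraries. Results that rest on KO2 are therefore given with it and without it. Without KO2 the class difference is estimated from the wild-type libraries alone, 2 against 2, since all 3 remaining knockout libraries are exocrine-rich.

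The 36 acinar enzyme genes together took 28.7% of all counts in WT1, 15.4% in WT3, 23.9% in KO1, 29.9% in KO3 and 19.0% in KO4. They took 2.20% in WT2, 5.26% in WT4 and 5.72% in KO2. The library nearest to the limit of 15% was WT3 and the one nearest to the limit of 6% was KO2, with no library between 5.72% and 15.4%. The share ranged 13.6-fold over the 8 libraries. The 6 islet hormone genes stood at 9.02 to 18.3% in the exocrine-rich and 16.7 to 24.3% in the exocrine-poor libraries as a share of all counts, with WT3 above KO2. Shares of one total are not independent of each other, so the hormones were also read over the counts outside the acinar lists.

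**Figure D1:**
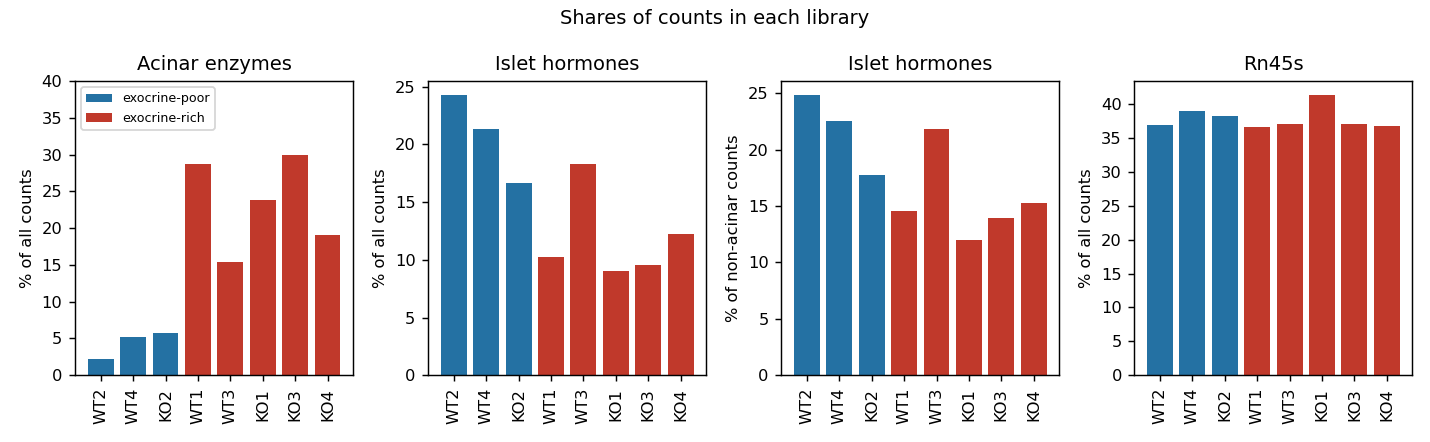
Percent of counts per library (bars, 1 library each, no error bars) for the acinar enzyme genes, the 6 islet hormone genes over all counts and over counts outside the acinar lists, and the ribosomal RNA precursor Rn45s. The 5 exocrine-rich libraries reach 15.4 to 29.9% acinar enzyme counts and the 3 exocrine-poor libraries 2.20 to 5.72%, while Rn45s stays between 36.7 and 41.3% in all 8.

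The 5 marker genes are Cpa1, Cpb1 (carboxypeptidases), Prss2 (a trypsinogen), Pnlip (pancreatic lipase) and Ctrb1 (chymotrypsinogen). They belong to the enzyme genes whose summed share set the classes and are given as a description. Levels are in CPM (counts per 1000000 of a library total scaled with TMM, a factor that allows for a few abundant genes taking many counts), with exocrine-rich values in the order WT1, WT3, KO1, KO3 and KO4 and exocrine-poor values in the order WT2, WT4 and KO2. Cpa1 was at 18964, 9672, 17209, 18472 and 8777 CPM in the exocrine-rich and at 1041, 2726 and 2029 CPM in the exocrine-poor libraries. Prss2 was at 21300.5, 10818, 15930.2, 23437 and 8049 CPM against 926, 2320.2 and 2534 CPM. Both genes were lowest in WT2, and KO4 was the lowest of the exocrine-rich libraries for both. The log2 differences, exocrine-rich minus exocrine-poor with genotype in the fit, were 2.9 for Cpa1, 3.2 for Cpb1, 3.01 for Prss2, 3.06 for Pnlip and 2.87 for Ctrb1, and without KO2 they were 2.93, 3.44, 3.31, 3.28 and 3.03.

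The upstream sequences of 3 of these markers are shown because they hold short motifs known for the Ptf1a complex, which many but not all enzyme genes hold. The sequences are the 250 bases before the start of each gene from a RefSeq promoter table of GRCm38.p6, a later build than the mm9 of the submitters' processing notes, and they are not joined to any coordinate of the data. Capitals mark each match to the E-box CACCTG or the TC-box TTTCCC on either strand, so that CAGGTG and GGGAAA are matches on the other strand. Prss2 lies at chr6:41521526-41521775 on the plus strand, Cpb1 at chr3:20275734-20275983 on the minus strand and Ctrb1 at chr8:111691011-111691260 on the minus strand.
Prss2: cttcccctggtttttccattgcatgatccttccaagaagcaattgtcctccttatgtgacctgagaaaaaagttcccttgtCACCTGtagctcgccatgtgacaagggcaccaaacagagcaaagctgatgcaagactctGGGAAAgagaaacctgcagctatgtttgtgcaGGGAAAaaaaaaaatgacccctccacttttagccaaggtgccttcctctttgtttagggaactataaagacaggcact
Cpb1: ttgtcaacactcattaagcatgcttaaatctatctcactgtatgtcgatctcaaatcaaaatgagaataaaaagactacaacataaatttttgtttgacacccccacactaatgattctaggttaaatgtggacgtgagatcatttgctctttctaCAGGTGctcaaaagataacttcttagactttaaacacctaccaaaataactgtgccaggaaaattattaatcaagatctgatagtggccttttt
Ctrb1: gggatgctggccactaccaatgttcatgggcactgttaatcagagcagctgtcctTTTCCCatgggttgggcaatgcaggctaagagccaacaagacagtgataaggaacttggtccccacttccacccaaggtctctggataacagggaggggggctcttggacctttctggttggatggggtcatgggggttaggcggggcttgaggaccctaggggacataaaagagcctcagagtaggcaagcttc
The window of Prss2 holds 1 E-box and 2 TC-boxes, that of Cpb1 1 E-box and that of Ctrb1 1 TC-box. The other markers not shown are Cpa1, with 1 TC-box, and Pnlip, with neither motif. Of the 36 enzyme genes, 29 were matched in the table, and 17 of these (58.6%) held the E-box, 9 (31.0%) the TC-box and 7 (24.1%) both. Over all 27025 promoters of the table the shares were 17.1%, 21.9% and 3.63%. The 2 motifs shared a base in none of the matched enzyme promoters and in 20 promoters overall. Many trypsinogen genes are near copies of each other and are not independent. A match describes letters in this window and no binding was measured.

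The composition of the enzyme RNA varied far less than its amount. The pancreatic amylase gene Amy2a5 made up 36.2, 31.8, 35.5, 43.7 and 39.3% of the enzyme counts in WT1, WT3, KO1, KO3 and KO4, and 34.1, 35.3 and 39.2% in WT2, WT4 and KO2, so that the classes overlap. Over the 19 enzyme genes with at least 0.5% of the enzyme counts, the coefficient of variation of this internal share over the 8 libraries was 7.28 to 27.7% with a median of 13.5%, against 67.2% for the enzyme share of all counts. Pnlip was the steadiest of the 19, at 4.44 to 5.46% of enzyme counts. Try5, a trypsinogen gene, was the most variable, from 1.67% in WT4 to 4.71% in KO2, both exocrine-poor. Trypsinogens were at 15.7 to 19.5% of enzyme counts in the exocrine-rich and 14.0 to 18.9% in the exocrine-poor libraries. Amy2a2, Amy2a3 and Amy2a4 had identical values in every library, so these copies are not independent and their levels are uncertain.

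Of the 36 enzyme genes 34 passed the filter on low counts, with a median log2 difference of 3.0 (3.28 without KO2). The gene with the largest difference was Gm5771, a trypsinogen-like gene, at 3.62, next to Cela3a, an elastase gene, at 3.42, but Gm5771 is a low gene with 4 to 9 counts in the exocrine-poor libraries. At the other end stood Dnase1, a nuclease gene, at 0.01 with 0.242 to 0.514 CPM against 0.326 to 0.449 CPM, and Amy1, the salivary and liver amylase, at 2.28. Dnase1 had at most 16 counts in a library and was at a like level in all 8. The list of 19 other products of the secretory granule and acinar cell had a median of 2.93 (3.08 without KO2). In it Spink1, the trypsin inhibitor, was at 3.22, Serpini2 at 3.14, and Zg16, a zymogen granule lectin, at 2.97. Rarres2 was at -1.34 with KO2 and at 1.06 without it, and Aqp8, a water channel, at 0.65 and 3.34. Rarres2 is also a liver gene, with 6.68 CPM in KO2 and 0.196 to 0.978 CPM elsewhere.

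The 7 acinar transcription factor genes had a median of 1.75 (2.28 without KO2), with a wide range. Rbpjl was at 16.6, 12.2, 15.9, 12.5 and 5.65 CPM in the exocrine-rich libraries and at 0.993, 2.52 and 0.977 CPM in the exocrine-poor ones. Its log2 difference was 3.2, and KO4 lay well below the other 4 exocrine-rich libraries. Ptf1a was at 2.78, Gata4 at 2.17, Nr5a2 at 1.75 and Bhlha15 at 1.13. For Bhlha15 the classes overlap, with KO4 at 33.3 CPM below WT4 at 34.4 CPM. Foxp2, which neurons and other cells use too, was at -0.08, and its classes overlap, with 5.84 to 17.2 CPM against 5.69 to 16.6 CPM.

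The Reg genes, which encode secreted lectins of the exocrine pancreas that rise in pancreatic injury, did not keep the order of the enzyme share. Reg1 was at 1409, 222, 789, 4603 and 1101 CPM in the exocrine-rich libraries and at 43.9, 157 and 373 CPM in the exocrine-poor ones. WT3 had a lower level than KO2 although its enzyme share was 15.4% against 5.72%. Reg3g was at 0.717, 0.104, 0.176, 4.64 and 40.5 CPM against 0, 0.645 and 0.391 CPM, and Reg3b at 4.43, 0.242, 6.41, 61.7 and 88.4 CPM against 0.301, 3.9 and 1.27 CPM. Both were highest in KO3 and KO4, and WT1, with 28.7% enzyme counts, was at the level of WT4. Over the 6 Reg genes tested the median log2 difference was 2.67 with all 8 libraries and 0.24 without KO2, that is, in the wild-type libraries alone. Reg2 had a difference of 1.79 with KO2 and -1.0 without it, and Reg3d 3.14 and 3.22.

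Outside the acinar lists, 13851 genes were tested with edgeR's quasi-likelihood test with genotype as covariate and Benjamini-Hochberg adjustment. Of these, 81 (0.585%) were higher and 11 (0.0794%) were lower in the exocrine-rich libraries at an adjusted p below 0.05. The 81 had log2 differences from 0.63 to 5.21 with a median of 1.89, below the median of 3.0 of the enzymes. The 81 were chosen by this same difference, so their sign within each genotype and the order of their libraries are descriptions. Without KO2, 29 genes were higher (0.206%) and 1, Cntfr, was lower (0.0071%), and 17 of the 81 were called there too. Over all genes tested outside the acinar lists, all 5 exocrine-rich libraries lay above all 3 exocrine-poor ones for 527 genes (3.8%), and the reverse order held for 285 (2.06%). At an unadjusted p below 0.05, 786 of these genes (5.67%) had a positive and 549 (3.96%) a negative difference, 1335 (9.64%) in all. The count of calls rested on single libraries: leaving out 1 library gave 17 calls without WT1, 10 without WT2, 186 without WT3, 33 without WT4, 10 without KO1, 30 without KO2, 14 without KO3 and 148 without KO4. With library totals alone as the scale, 130 genes were higher and 5963 lower, and the median of all genes moved from -0.02 to -0.61. A fit with the replicate number as a block cannot test the class, since only WT4 and KO4 share a number but differ in class.

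The 4 genes of smallest p among those higher in the exocrine-rich libraries were Lgals1, Celsr1, 5430419D17Rik and Bmp7, and each was called without KO2 as well. Lgals1, which encodes galectin-1, was at 10.6, 6.85, 11, 9.5 and 5.97 CPM in the exocrine-rich and at 1.71, 1.71 and 1.56 CPM in the exocrine-poor libraries. Every exocrine-rich library was more than 3 times as high as any exocrine-poor one, a log2 difference of 2.4 ± 0.24 (SE, edgeR adjusted p = 0.00778, 2.35 without KO2). Celsr1, a cadherin of planar cell polarity, was at 10.1, 8.58, 9.0, 11.8 and 6.62 CPM against 1.65, 2.66 and 2.15 CPM, a log2 difference of 2.1 ± 0.23 (edgeR adjusted p = 0.00778). Bmp7, a growth factor of the BMP family, was at 5.45, 4.95, 5.29, 6.76 and 3.95 CPM against 1.35, 1.63 and 1.66 CPM, a log2 difference of 1.75 ± 0.21 (edgeR adjusted p = 0.00836). For both genes KO4 was the lowest exocrine-rich library, still above every exocrine-poor one. 5430419D17Rik had 65, 28, 18, 12 and 22 counts in WT1, WT3, KO1, KO3 and KO4 and 1 count in each exocrine-poor library, a ratio of scaled counts of 36.9 with a 95% exact counting interval of 12.4 to 181.

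Among the other named genes higher in the exocrine-rich libraries, Rab26, a small GTPase of secretory granules in acinar cells, was at 6.72, 4.15, 4.7, 5.34 and 3.18 CPM against 1.11, 1.54 and 1.14 CPM, a log2 difference of 1.99 ± 0.25 (edgeR adjusted p = 0.0113). Ppib, the peptidyl-prolyl isomerase cyclophilin B of the endoplasmic reticulum, was at 15.7, 12.2, 13.9, 14.2 and 9.41 CPM against 4.45, 5.8 and 6.22 CPM, a log2 difference of 1.25 ± 0.19 (edgeR adjusted p = 0.0225). Both genes separated the classes, KO4 being the lowest exocrine-rich library for each, and both were called without KO2. Vipr2, a receptor of vasoactive intestinal peptide, was at 3.98 to 6.94 CPM against 2.26 to 2.58 CPM (log2 difference 1.23, edgeR adjusted p = 0.0228). Slc1a5, a transporter of neutral amino acids such as glutamine, was at 2.97 to 6.23 CPM against 0.993 to 1.21 CPM (log2 difference 1.96, edgeR adjusted p = 0.0133, and 0.0533 without KO2). Cryab, a small heat shock protein gene, had a log2 difference of 1.93, Padi2, a peptidyl arginine deiminase gene, 1.64, Entpd1, which encodes the ectonucleotidase CD39, 1.5, Myo16, a myosin gene, 2.42, and Sh2d4a 2.05. Klk1b3, a kallikrein gene, was at 1.59 to 2.83 CPM against 0.0902 to 0.521 CPM (log2 difference 3.01), and its reads can be shared with Klk1, an acinar gene on the enzyme list. 1810053B23Rik was at 3.02 with an edgeR adjusted p of 0.0228, and of 0.0684 without KO2.

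Further genes among the 81 are given here singly, chosen after their values were seen. Slc6a9, a glycine transporter, was at 1.85 (7.82 to 17.1 against 2.65 to 3.92 CPM) on the log2 scale of the difference, Slc7a3, a transporter of cationic amino acids, at 2.12, and Psat1, an enzyme of serine synthesis, at 1.92 (6.61 to 14.1 against 1.68 to 4.01 CPM). Prdx4, the peroxiredoxin of the endoplasmic reticulum, was at 5.11 to 9.75 against 1.59 to 3.13 CPM (1.83), and Rab27b, a GTPase of granule release, at 2.18 to 4.43 against 0.477 to 1.24 CPM (2.02). The glycosyltransferase genes Galnt3, Galnt6 and Mgat4a were at 2.37, 2.54 and 1.57. Also called were the integrins Itgb4 (1.59) and Itga6 (0.66), the laminin chain Lamb3 (2.27), the claudin Cldn10 (2.07) and the transcription factors Grhl2 (1.37) and Spdef (3.52). Psmb10, a subunit of the immunoproteasome, was at 10.5 to 25.9 against 3.88 to 5.55 CPM (2.04), and Homer2, a scaffold protein of calcium signalling, at 9.68 to 23.5 against 1.77 to 5.11 CPM (2.3). Of these genes, Prdx4, Psat1 and Rab27b were also called without KO2. No gene set was tested for enrichment among the calls. In the upstream windows of the 51 called genes matched in the promoter table, the E-box was found in 31.4%, the TC-box in 19.6% and both in 1.96%. For genes tested outside the acinar lists the shares were 15.7%, 23.0% and 3.36%. The E-box was thus more frequent among the called genes (16 of 51) and the TC-box was not. The pair of motifs was found in 1 called gene, too few to compare, and none of these shares was tested.

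**Figure D2:**
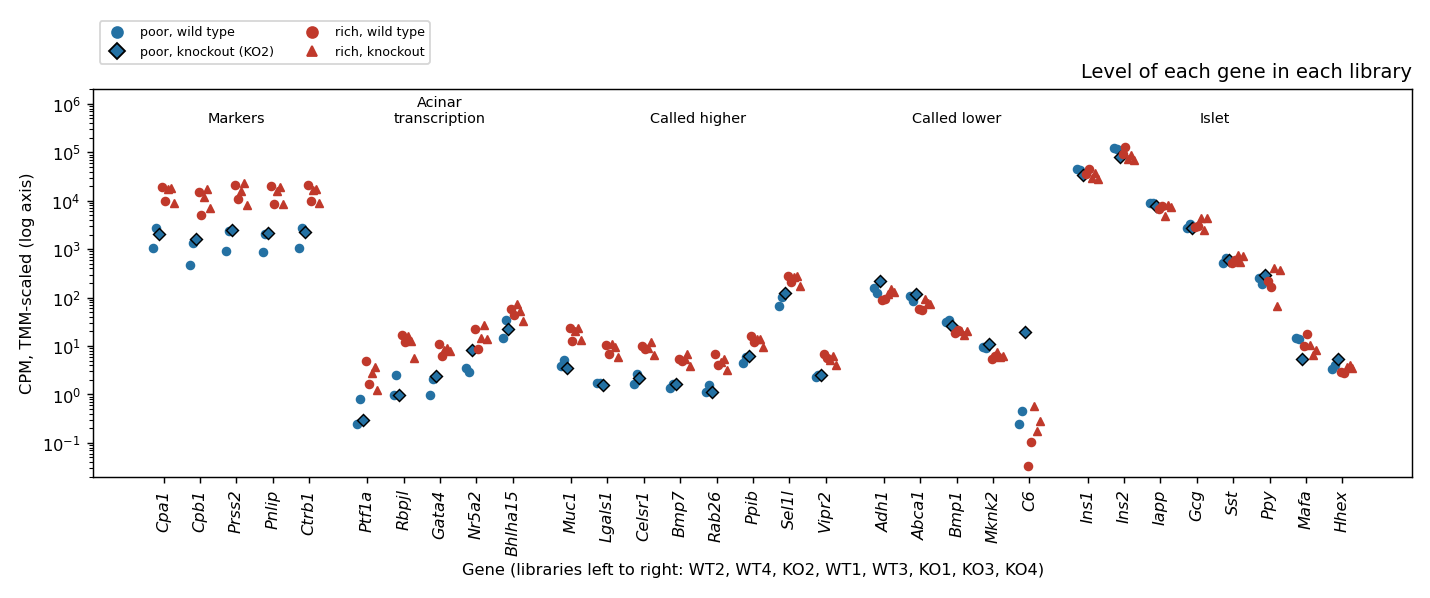
Level of each named gene (x axis) in each of the 8 libraries, in CPM on a log axis; blue symbols are exocrine-poor and red symbols exocrine-rich libraries, circles are wild type, triangles knockout, and the outlined diamond is KO2. Markers and genes called higher separate the classes, Ins1 to Hhex overlap, and C6 is high in KO2 alone at 19.7 CPM.

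Among the 11 genes lower in the exocrine-rich libraries, KO2 was the highest of all 8 libraries for 10 of the 11, all but Bmp1, and none of the 11 was called without KO2, though all 11 kept their sign and the lower calls were also lost in part without other libraries (0 lower calls without KO1 and 1 without KO3). For Adh1, Abca1, Mknk2 and Bmp1 the difference was about as large without KO2. C6, a complement gene, was at 19.7 CPM in KO2 and at 0.0326 to 0.588 CPM in the other 7 libraries, a log2 difference of -5.33 ± 0.54 (edgeR adjusted p = 0.00836) that was -2.29 without KO2 (adjusted p = 0.3). Fgl1, a fibrinogen-like gene of liver, was at 4.98 CPM in KO2 and at 0.0326 to 0.353 CPM elsewhere. The classes were apart for 4 of the 11 (Angptl4, Mknk2, Bmp1 and Hacl1). The part of liver RNA in these differences was not tested.

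Bmp1, a protease that trims procollagen, was the exception. It was at 18.5, 21.5, 20.6, 17.1 and 20.2 CPM in the exocrine-rich libraries and at 31.5, 33.8 and 25.5 CPM in the exocrine-poor ones. All 3 exocrine-poor libraries lay above all 5 exocrine-rich ones, and KO2 was the lowest of the 3. Its log2 difference was -0.58 ± 0.12 (edgeR adjusted p = 0.047), and -0.71 without KO2 (adjusted p = 0.0676). Mknk2, a kinase of the translation factor eIF4E, was at 5.35, 6.33, 7.7, 5.83 and 6.1 CPM against 9.44, 8.91 and 10.8 CPM, a log2 difference of -0.69 ± 0.13 (edgeR adjusted p = 0.0455) and of -0.65 without KO2 (adjusted p = 0.186). Abca1, a cholesterol exporter, was at 56 to 94.5 against 84.5 to 117 CPM, with WT4 inside the exocrine-rich range, and Adh1, an alcohol dehydrogenase, at 90.3 to 149 against 125 to 218 CPM, with WT4 inside it too. Their log2 differences were -0.65 and -0.66 with KO2 and -0.76 and -0.63 without it. Angptl4, an inhibitor of lipoprotein lipase, was at 3.84 CPM in KO2, at 0.571 and 0.673 CPM in WT2 and WT4, and at 0.225 to 0.309 CPM in the exocrine-rich libraries. Hacl1, a peroxisomal lyase gene, was at 5.93 CPM in KO2 and at 0.619 to 1.53 CPM elsewhere.

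The islet hormone genes overlapped between the classes in TMM-scaled CPM. Ins2 was at 90698, 130625, 71893, 87507 and 68828 CPM in the exocrine-rich and at 122868, 117270.0 and 80315 CPM in the exocrine-poor libraries. WT3, an exocrine-rich library, had the highest value of the 8, and the log2 difference was -0.10 with a 95% interval of -0.74 to 0.54. Ins1 was at -0.14 (-0.69 to 0.42), Iapp, the amylin gene, at -0.27 (-0.75 to 0.22), Gcg at 0.15 (-0.37 to 0.68), Sst at 0.01 (-0.33 to 0.35) and Ppy at -0.13 (-1.63 to 1.36). Sst, the somatostatin gene of delta cells, was at 519, 588, 746, 555 and 714 CPM against 531, 667 and 590.2 CPM, and its interval alone of the 6 lies within 1.5-fold either way. Ppy, the pancreatic polypeptide gene, ranged from 66.8 CPM in KO3 to 412 CPM in KO1, both exocrine-rich. None of the 6 was called, with the lowest edgeR adjusted p at 0.776 for Iapp, and none had an unadjusted p below 0.05. DESeq2 called none either. Without KO2 Gcg was at -0.05 and Sst at -0.11.

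As a share of the counts outside the acinar lists, the 6 hormone genes took 14.5, 21.8, 12.0, 13.9 and 15.3% in WT1, WT3, KO1, KO3 and KO4 and 24.8, 22.5 and 17.7% in WT2, WT4 and KO2. The means were 15.5 ± 3.73% (SD, n = 5) and 21.7 ± 3.62% (SD, n = 3), with WT3 above KO2 (exact permutation p = 0.0714, adjusted p = 0.5). Within each genotype every exocrine-rich library lay below every exocrine-poor one, which in the knockout is KO2 alone. The two-sided permutation test has no genotype term and runs over the 56 arrangements of 8 libraries into 5 and 3. Its smallest possible p is 0.0357. With 14 shares adjusted together a single share cannot pass, so that a missed threshold says nothing on likeness. Rn45s, the ribosomal RNA precursor and the most abundant entry of the table, took 36.7 to 41.3% of all counts in the exocrine-rich and 37.0 to 38.9% in the exocrine-poor libraries (exact permutation p = 0.857). Of the non-acinar counts it took 44.0 to 54.8% in the first class and 37.8 to 41.2% in the second, so the denominator of the hormone share holds more Rn45s in the exocrine-rich libraries. With Rn45s, Lars2 and Mir6236 taken out of the denominator as well, the hormone difference of -6.20 percentage points became -3.21. Ins1 took 23.9 to 27.6% of hormone counts in the exocrine-rich and 25.0 to 27.4% in the exocrine-poor libraries (exact permutation p = 0.857), and Gcg 1.60 to 4.07% against 1.51 to 2.21% (exact permutation p = 0.429).

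None of the 109 tested genes of the 6 islet lists was called by edgeR in either direction, with 2 higher and 9 lower at an unadjusted p below 0.05. Over all genes 0.585% were called higher and 0.0794% lower, and 5.67% were higher and 3.96% lower at that unadjusted p, so a count of 0 calls in 109 genes is near the background. DESeq2 called 1 of the 112 it tested lower, beside 208 of 18517 genes outside the acinar lists. By limma-trend on log2(RPM + 1), 44 of 109 were called lower, beside 2320 of 13851. The RPM values carry no TMM factor and are scaled to a read total, of which assigned counts made up 52.5 to 60.9%. Of 34 beta-cell identity genes 6 had a positive and 28 a negative log2 difference, with a median of -0.15, beside -0.02 over all genes tested. The 95% interval lay within 1.5-fold of no difference for 24 of the 34, a precision reached by 53.3% of all genes tested. Of 24 genes of excitability and exocytosis 22 had such an interval (median -0.17), and of 19 genes of prohormone processing and the granule 14 did (median -0.12). Without KO2 the 3 medians were -0.23, -0.25 and -0.11. Negative differences were found for 21 of the 24 and 16 of the 19 genes, beside 7538 of all 13851. Per 1000000 non-acinar counts, the prohormone and granule list stood at 7422 to 10256 in the exocrine-rich and 10889 to 11777 in the exocrine-poor libraries. That denominator holds more Rn45s in the exocrine-rich class, and the difference was not tested. Over the 6 islet lists together, 64 of 109 genes (58.7%) had an interval within 1.5-fold.

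A few islet genes are given singly, chosen by their roles after the values were seen, and do not stand for their lists. Pdx1, a transcription factor of beta-cell identity, was at 27.6, 28, 21.8, 21.1 and 23.7 CPM against 36.4, 28.1 and 21.7 CPM, a log2 difference of -0.11 (-0.37 to 0.14). Slc2a2, the glucose transporter of mouse beta cells, was at 197, 207, 186, 191 and 189 CPM against 248, 229.6 and 211 CPM, a log2 difference of -0.20 (-0.42 to 0.01). For Slc2a2 all 5 exocrine-rich libraries lay below all 3 exocrine-poor ones, by a margin as small as 207 against 211 CPM, and its adjusted p was 0.524. Pcsk1, a prohormone convertase, was at 115 to 139 against 129.7 to 139 CPM, and Isl1, an islet transcription factor, at 31 to 43.9 against 34.4 to 44.3 CPM. Mafa, an activator of the insulin genes, was at 6.45 to 17.6 against 5.47 to 14.7 CPM, with KO2 the lowest library, and its interval of -0.34 to 0.74 is too wide to place it within 1.5-fold. Of the genes named by p-value in these lists, Kcnj11, the pore of the ATP-sensitive potassium channel, was at 33.3, 36, 27.2, 29.2 and 27.7 CPM against 49.1, 43.8 and 29.8 CPM, a log2 difference of -0.28 with an adjusted p of 0.344. Chgb, a granin, was at -0.30 (-0.59 to -0.0021), Cacna1a, a calcium channel gene, at -0.29 (-0.63 to 0.04), Nucb2 at 0.61 (0.07 to 1.15) and Ovol2 at 0.89 (0.08 to 1.7). Esr1, an estrogen receptor gene, had 0.207 to 0.706 against 0.561 to 1.82 CPM, highest in KO2, and a log2 difference of -1.55 (adjusted p = 0.0698).

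In the alpha-cell list 7 of 14 genes were positive (median -0.03, -0.24 without KO2), in the list for the rarer delta, PP and epsilon cell types 3 of 13 (median -0.12 with and without KO2), and edgeR called none, with 3 lower in each list at an unadjusted p below 0.05 (3.96% of all genes). Hhex, a transcription factor of delta cells, was at 2.73 to 4.02 against 3.34 to 5.34 CPM. Ttr and Rbp4 carry thyroid hormone and retinol in blood and are liver genes too: Ttr was at 596 CPM in KO2 and at 266 to 385 CPM elsewhere, and Rbp4 at 146 CPM in KO2 and at 22.4 to 38.5 CPM elsewhere.

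All 80 cytosolic ribosomal protein genes had a positive log2 difference, from 0.02 to 1.06 with a median of 0.46, beside a median of -0.02 over all genes tested. Of the 80, 70 had an unadjusted p below 0.05 with a positive difference, where 5.67% of all genes did. For 27 (33.8%) all exocrine-rich lay above all exocrine-poor libraries, where 3.8% of all genes did. DESeq2 called 34 of the 80 higher, beside 281 of 18517 genes outside the acinar lists. By limma-trend on log2(RPM + 1), 0 were called higher, beside 147 of 13851. In edgeR 1 gene was called higher (0.585% of all genes were). That gene was Rplp1, a protein of the ribosomal stalk, at 242, 189.6, 199, 201 and 136 CPM in the exocrine-rich and 114, 118 and 111 CPM in the exocrine-poor libraries (log2 difference 0.80 ± 0.15, edgeR adjusted p = 0.04, 0.90 with adjusted p = 0.0841 without KO2). Rpl32 was at 202, 119, 143, 203 and 124 CPM against 72.6, 73.2 and 80.7 CPM, the largest difference of the list at 1.06 (edgeR adjusted p = 0.0579). Rpl13a, host of the deleted snoRNAs, was at 97.7 to 139 against 82 to 87.6 CPM, a log2 difference of 0.41. The classes do not overlap for any of the 3. Rpl32 and Rpl13a were picked once their values had been seen. The sign was positive for 80 of 80 genes without KO2 (median 0.55), which rests on the same libraries as the difference within wild type (80 of 80). Within knockout, where the exocrine-poor side is KO2 alone, the sign was positive for 79 of 80. With library totals alone as the scale it flipped to a median of -0.15 with 17 of 80 positive, when the median of all genes stood at -0.61.

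**Figure D3:**
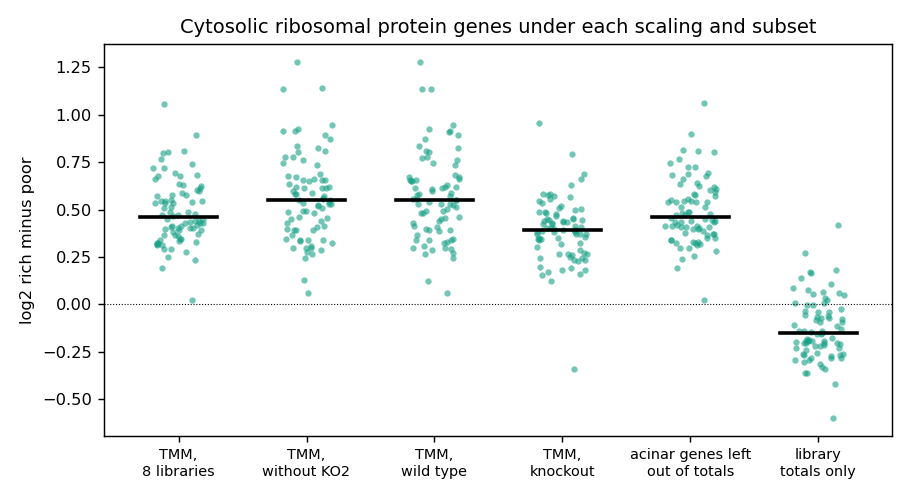
Log2 difference, exocrine-rich minus exocrine-poor, of the 80 cytosolic ribosomal protein genes (points) and their median (bar) under 3 scales and in subsets of the libraries, with the dotted line at 0. The differences without KO2 and in wild type rest on the same libraries and are not separate results. The median lies at 0.46 with TMM and at -0.15 with library totals alone, where the median of all tested genes is -0.61.

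The ribosomal protein genes took 0.877, 0.722, 0.770, 0.910 and 0.917% of non-acinar counts in WT1, WT3, KO1, KO3 and KO4 and 0.653, 0.646 and 0.805% in WT2, WT4 and KO2 (means 0.839 ± 0.0882%, n = 5, and 0.702 ± 0.0899%, n = 3, exact permutation p = 0.107, adjusted p = 0.5). WT2 and WT4 were the lowest 2 of the 8, and KO2 lay above WT3 and KO1. Of 38 translation factor genes 34 were positive (median 0.18, 0.23 without KO2) and edgeR called none, with 15 of the 38 higher at an unadjusted p below 0.05 (5.67% of all genes). DESeq2 called 6 of the 38 higher, beside 281 of 18517 genes outside the acinar lists. Tpt1 was at 369 to 727 against 244 to 372 CPM, with WT3 below KO2, and Eif1ax at 2.9 to 5.08 against 1.71 to 2.41 CPM (adjusted p = 0.0971 and 0.091).

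Of 49 genes of translocation and folding in the endoplasmic reticulum 38 were positive with a median of 0.10, but the median was 0.38 in wild type and -0.18 in knockout, where the exocrine-poor side is KO2 alone. At an unadjusted p below 0.05, 8 of the 49 were higher and 0 lower, beside 5.67% and 3.96% of all genes. The 1 gene called, where 0.585% of all genes were called higher, was Sel1l, an adaptor of the pathway that removes misfolded proteins. Sel1l was at 278, 209, 266, 278 and 176 CPM against 68.4, 105 and 126 CPM, a log2 difference of 1.24 ± 0.22 (edgeR adjusted p = 0.0455, and 0.0676 without KO2). Every exocrine-rich library lay above every exocrine-poor one. Of 75 genes of oxidative phosphorylation 55 were positive (median 0.12, 0.26 in wild type and -0.10 in knockout), and none was called by edgeR or DESeq2, with 3 of the 75 higher at an unadjusted p below 0.05 in edgeR, no more than the 5.67% of all genes. Atp5o was at 27.5 to 41.7 against 18.8 to 29.7 CPM and Ndufa9 at 7.17 to 8.13 against 5.59 to 6.9 CPM.

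**Figure D4:**
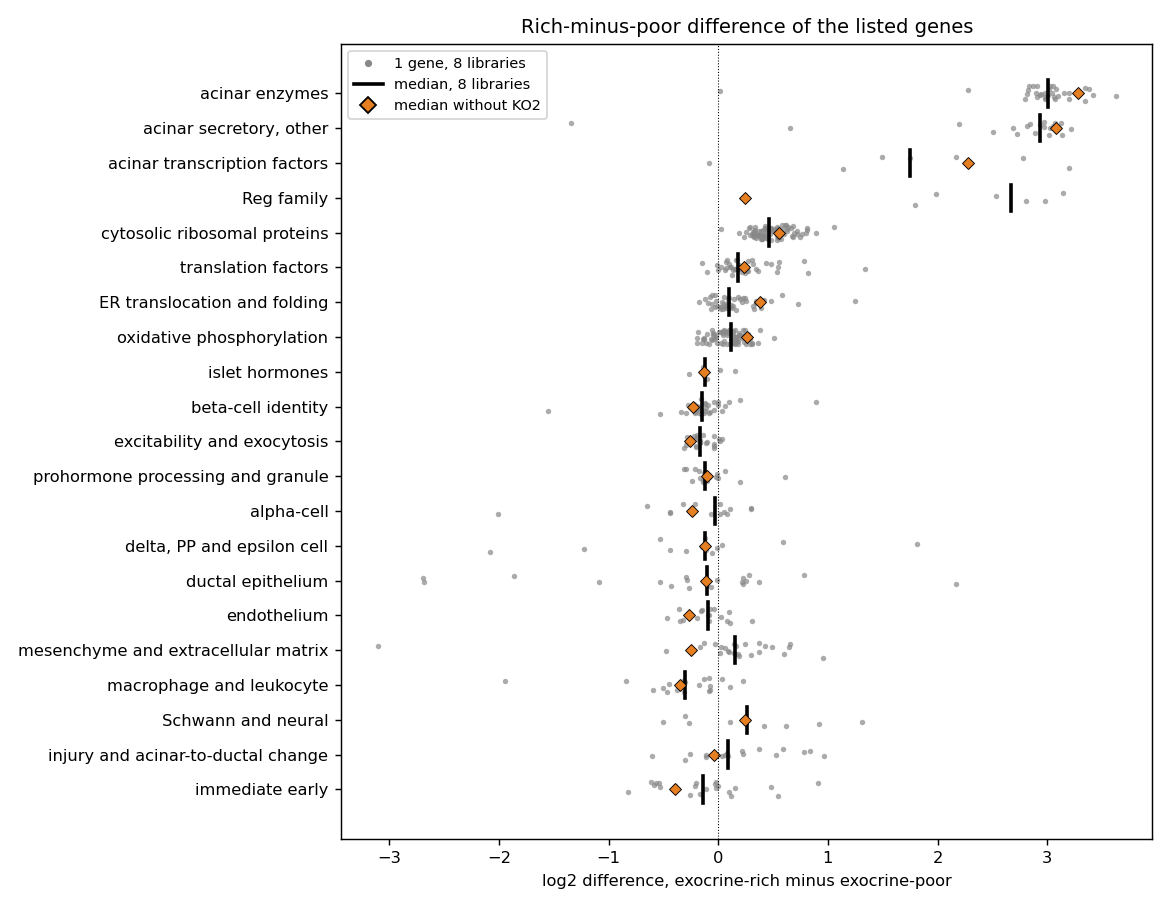
Log2 difference, exocrine-rich minus exocrine-poor, of the tested genes of 21 lists (grey points, 1 gene each, all 8 libraries), with the median over 8 libraries (black bar) and the median without KO2 (orange diamond). The acinar enzyme and other secretory lists lie near 3, the acinar transcription factors at 1.75, ribosomal protein genes near 0.46 and the islet lists just below 0; the Reg median falls from 2.67 to 0.24 without KO2.

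Duct cells line the channels that carry the enzymes away and are the other exocrine cell type. Krt7, a ductal keratin, was at 13.7, 18, 16.4, 14.6 and 14.2 CPM against 25.1, 19.3 and 14.5 CPM, Sox9 at 6.12 to 10.3 against 4.98 to 7.68 CPM, and Cftr, the chloride channel, at 0.196 to 0.882 against 0.392 to 0.521 CPM. The classes overlap for all 3. Krt19, a keratin, was at 1.19 to 3.01 against 1.07 to 2.3 CPM with a log2 difference of 0.78 (edgeR adjusted p = 0.373). Of 22 ductal genes 8 were positive with a median of -0.11 (9 of 22 and -0.11 without KO2). At an unadjusted p below 0.05, 2 of the 22 were higher and 4 lower, beside 5.67% and 3.96% of all genes. Muc1, an apical mucin of ductal and acinar cells, was the only ductal gene called, where 0.585% of all genes were called higher. Muc1 was at 23.6, 12.6, 20.8, 23.2 and 13.4 CPM against 3.88, 5.21 and 3.52 CPM (log2 difference 2.17 ± 0.29, edgeR adjusted p = 0.0251). The ductal genes took 0.0223 to 0.0278% of non-acinar counts in the exocrine-rich libraries and 0.0282, 0.0255 and 0.0634% in WT2, WT4 and KO2 (exact permutation p = 0.0714, adjusted p = 0.5), and the mean difference of -0.0149 percentage points was -0.00277 without KO2. In KO2 that list holds liver-expressed genes such as Ambp, at 96.5 CPM there and 7.37 to 8.70 CPM elsewhere.

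Of 17 genes linked to acinar injury or acinar-to-ductal change 12 were positive (median 0.09, -0.04 without KO2). At an unadjusted p below 0.05, 3 of the 17 were higher and 0 lower, beside 5.67% and 3.96% of all genes. Clu, the chaperone clusterin, was the only one of the 17 called, where 0.585% of all genes were called higher. Clu was at 189.5, 119.7, 197, 187 and 151 CPM in the exocrine-rich and at 73.1, 89.96 and 108 CPM in the exocrine-poor libraries. WT3 was the lowest exocrine-rich library and still lay above KO2, the highest exocrine-poor one, and the log2 difference was 0.84 ± 0.17 (edgeR adjusted p = 0.0471). Of 22 immediate early genes 7 were positive and none was called by edgeR or DESeq2 (2 higher and 1 lower at an unadjusted p below 0.05 in edgeR, beside 5.67% and 3.96% of all genes), with Klf6 at 14 to 22.7 against 11.3 to 11.7 CPM and Myc at 5.85 to 15.2 against 3.55 to 5.86 CPM.

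Endothelial, mesenchymal, macrophage, Schwann, erythroid and fat-cell lists held no gene called by edgeR. Over all genes 0.585% were called higher and 0.0794% lower, so 0 calls in 82 genes is near the background. At an unadjusted p below 0.05 they held 2 higher and 6 lower of 82 genes, where 5.67% and 3.96% of all genes were. The macrophage and leukocyte list held 4 of these lower genes among its 19. For 3 of the 19 all exocrine-rich lay below all exocrine-poor libraries, where 2.06% of all genes did. DESeq2 called 2 of the 95 genes it tested in the 6 lists lower, beside 208 of 18517 genes outside the acinar lists. By limma-trend on log2(RPM + 1), 16 of 82 were called lower, beside 2320 of 13851. Endothelial genes had a median of -0.09 (5 of 19 positive, and -0.27 with 3 of 19 without KO2), and Pecam1 was at 32 to 44.5 against 28.6 to 39.2 CPM, Cdh5 at 11.9 to 18 against 15.8 to 19.96 CPM, and Kdr at 38.9 to 47.7 against 45 to 70.7 CPM. Macrophage and leukocyte genes had a median of -0.30 (3 of 19 positive, -0.35 without KO2), and C1qc, a complement subunit of macrophages, was at 1.66, 1.31, 1.59, 1.46 and 1.93 CPM against 2.65, 2.86 and 2.9 CPM (log2 difference -0.85, adjusted p = 0.0901). Its classes do not overlap. Mesenchymal genes had a median of 0.16 with 21 of 26 positive, and of -0.25 with 8 of 26 positive without KO2. Col3a1 and Col1a1, collagens of fibroblasts, were highest in KO4 at 53.4 and 18.9 CPM. Of 8 Schwann and neural genes 5 were positive, all 7 erythroid genes were negative (median -0.27, -1.36 in wild type and 1.82 in knockout), and the fat-cell genes Adipoq and Plin1 had 0 counts in all libraries. The erythroid list stood highest in KO4 and WT4, one library of each class, with Hba-a1, a globin gene, at 92.5 and 93.6 CPM.

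None of the 81 genes higher in the exocrine-rich libraries passed the test of a class difference that differs between the genotypes, and 1 of the 11 lower genes did. That test, the interaction of class and genotype, called 257 of 13917 genes (1.85%), 250 with a lower and 7 with a higher class difference in the knockout. KO2 was the highest of all 8 libraries for 247 of them and the lowest for 5, and it was more than 10-fold above any other library for 57. The interaction was -9.62 for Alb, -9.45 for Pzp, -10.18 for Apob, -4.31 for Cdo1 and -3.44 for Ambp on the log2 scale, all expressed in liver. When the 178 genes more than 3-fold higher in KO2 than in any other library were left out, 61 genes passed. With 1 exocrine-poor knockout library, the interaction and the state of KO2 cannot be told apart.

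**Figure D5:**
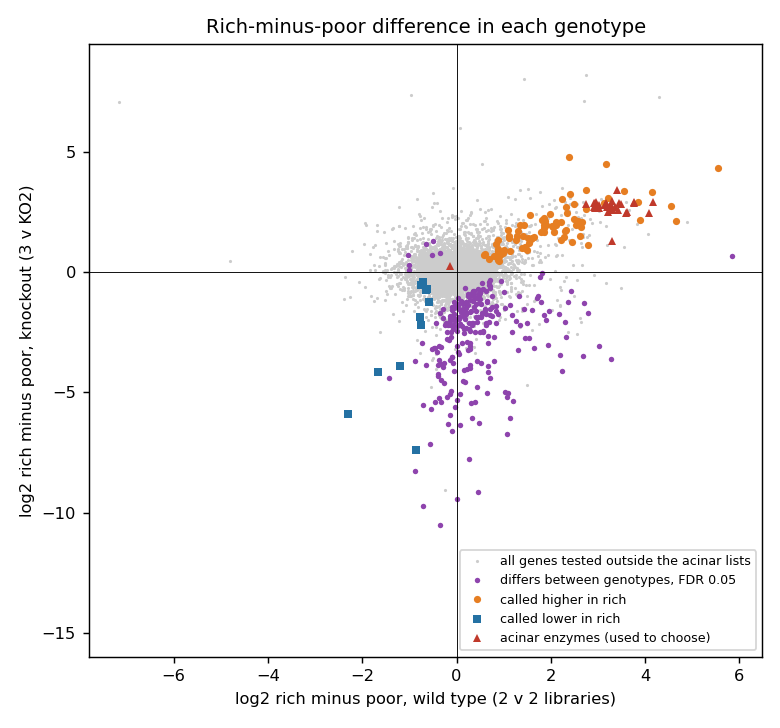
Log2 difference, exocrine-rich minus exocrine-poor, in the wild-type libraries (x axis, 2 against 2) and in the knockout libraries (y axis, 3 against KO2), 1 point per gene. Red triangles are acinar enzymes, orange circles genes called higher, blue squares genes called lower and purple points the genes with an interaction. The enzymes except Dnase1 and the 81 genes called higher lie above 0 on both axes, and most of the 257 genes with an interaction lie below 0 on the knockout axis.

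With the class as covariate, 3 of 13917 genes (0.0216%) differed between knockout and wild type, against 2 without it. Klk1b22, a kallikrein gene near Klk1 in sequence, had 373 counts over the knockout and 2 over the wild-type libraries, a ratio of scaled counts of 236 with a 95% exact counting interval of 64.9 to 1957, and its log2 class difference was 0.32 (adjusted p = 0.835). Mdm1, a gene of a centriole protein, was at 41.2, 37.4, 30.7 and 36.5 CPM in KO1 to KO4 and at 12.9 to 18.1 CPM in wild type, a log2 genotype difference of 1.33 (edgeR adjusted p = 0.00345), with a class difference of -0.10. The third gene, C6, was called on the level of KO2 described above. The median knockout-minus-wild-type log2 difference of the 34 enzyme genes was 0.21 with the class in the fit and 0.53 without it. Without WT1 the genotype test called 652 genes, and without any other single library it called 2 to 6.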

How the data were processed

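RNA sequencing of 8 islet libraries, 1 per mouse, was read from a table of estimated counts per gene (24469 genes) and a table of RPM values, both deposited by the authors. Per the submitters' processing notes, STAR 2.4.1, Partek and the build mm9 were used; for their roles, the annotation and the use of strand the sources used here give nothing. Per the labels' protocols, total RNA was treated with DNase and amplified with SeqPlex. The deposited estimated counts were not always whole (10.0 to 12.4% of values), as when reads are shared between copies, and were rounded. The authors scaled the deposited RPM per 1000000 reads; these values serve in 1 alternative only.

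Genes were filtered with filterByExpr by class and fitted with edgeR 4.0.16 (quasi-likelihood, TMM, genotype and class) in R 4.3.3, with Benjamini-Hochberg adjustment over all 13917 genes. The CPM printed are scaled with TMM factors of 0.701 to 1.11 (exocrine-rich) and 1.23 to 1.34 (exocrine-poor). The interaction was a second fit. Alternatives used DESeq2 1.42.0 and limma 3.58.1, and the script was tested on simulated data. Shares were compared with exact permutation tests that had no genotype term. The members and the gene lists were chosen with earlier results of these data known. Named genes are the 5 markers, the 6 hormone genes, the 15 genes in each direction of smallest p with classes apart (the 5 of smallest p where fewer than 5 pass), up to 3 called genes per list or the 2 of smallest p, the extremes and 5 most abundant genes of each acinar list, and up to 5 genes each for the interaction and the genotype; a few list genes are not reported here. Intervals on counts cover counting error only. No column of other samples was present.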

Additional observations from a re-analysis of the deposited data

Results flagged for a closer look

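Of 159 sets of libraries and values examined, 12 had 1 library far from the rest by Dixon's criterion at the 95% level, a mark that chance alone gives in about 1 of 20 sets.

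KO2 had a hepatocyte share of 1.07% among knockout libraries at 0.0231 to 0.0369%, and a ductal share of 0.0634% of non-acinar counts where the others had 0.0234 to 0.0278%. Rn45s took 41.3% of the counts of KO1, apart from 36.7 to 37.1% in the other exocrine-rich libraries, and 38.9% of those of WT4, apart from 36.7 to 37.0% in the other wild-type libraries. The Reg genes took 0.108% in WT1 and 0.00614 to 0.0229% in the other wild-type libraries.

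Erythroid genes took 0.0505% in KO4, where the other exocrine-rich libraries had 0.00353 to 0.00910% and the other knockout libraries 0.00418 to 0.00788%. They took 0.0458% in WT4 and 0.00353 to 0.00911% in the other wild-type libraries. Among exocrine-rich libraries, Hacl1 was lowest in WT1 at 0.619 CPM (others 1.11 to 1.37), Ndufa9 highest in WT3 at 8.13 CPM (others 7.17 to 7.42), and 2 acinar genes were lowest in KO4, Rbpjl at 5.65 CPM (others 12.2 to 16.6) and Sycn, of the zymogen granule, at 226 CPM (others 465 to 587).

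The class difference differed between the genotypes for 257 genes in the edgeR interaction test. The log2 interaction was -9.62 for Alb, -3.44 for Ambp, -10.2 for Apob, -4.31 for Cdo1 and -9.45 for Pzp. It rests on KO2, the only exocrine-poor knockout library, and the part of the liver RNA in KO2 was not tested apart from it.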

How the results depend on the processing

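The edgeR count of 92 class calls (81 higher, 11 lower) became 180 at an adjusted p of 0.10, 6093 with library totals alone (130 higher, 5963 lower), 414 with no filter (162 higher, 252 lower), 489 with DESeq2 (281 higher, 208 lower), 2467 with limma-trend on log2(RPM + 1) (147 higher, 2320 lower), and 356 on log2 acinar share (341 higher, 15 lower). It was 10 to 186 with 1 library left out. It was 77 to 109 with DESeq2 size factors in edgeR, totals without the acinar lists, the genotype filter, no genotype term, Xist as a term, or without the genes high in KO2; the last of these was chosen after seeing the data. The 3 genotype calls became 162 with library totals alone, 349 with no filter, 375 with DESeq2 and 128 with limma-trend, and 2 to 652 with 1 library left out. The 257 interaction calls became 453 with no filter, 521 with DESeq2 and 61 without the genes high in KO2; without KO2 this test has no exocrine-poor knockout library. Over all counts, the ductal difference was -0.0188 percentage points, then at the smallest exact permutation p of 0.0357, and the ribosomal protein difference turned to -0.0360.

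The correlations leave it undecided whether same-numbered libraries were paired. Same-numbered libraries had correlations of 0.0375, 0.204, 0.15 and 0.124 between their deviations from the genotype means. By these, WT2, WT3 and WT4 correlated best with the knockout library of their own number, and WT1 with KO3. When the class was fitted too, the correlations were -0.326, -0.584, -0.123 and 0.22, and no wild-type library correlated best with its own number. With the replicate number as a block, the class difference rests on WT4 and KO4 alone, since all other same-numbered libraries share a class. That fit therefore cannot decide how the class results depend on pairing. Its log2 difference changed sign for Bhlha15 (-0.44), Foxp2 (0.40), Hba-a1 (0.029), Kdr (0.19), Klf6 (-0.029), Myc (-0.64), Ppy (0.99), Ptprb (0.30), Rarres2 (0.95), Reg2 (-0.82) and Sst (-0.10).

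With library totals alone the sign changed for Atp5o (-0.12), Dnase1 (-0.58), Fabp4 (-0.070), Gcg (-0.41), Klf6 (-0.054), Klk1b22 (-0.27), Lpl (-0.16), Ndufa9 (-0.29), Nucb2 (-0.022) and Sst (-0.56). With limma-trend it changed for Dnase1 (-0.082), Gcg (-0.32), Klk1b22 (-0.044), Lpl (-0.016), Ndufa9 (-0.13) and Sst (-0.44). With no genotype term it changed for Dnase1 (-0.0076), Foxp2 (0.056), Mdm1 (0.26) and Ppy (0.0061), and on log2 acinar share for Foxp2 (0.00012). Leaving out 1 library gave -1.63 to 0.045 for Alas2, -7.48 to 0.46 for Alb, -2.46 to 0.52 for Cdo1, -0.21 to 0.25 for Dnase1, -0.38 to 0.19 for Foxp2, -0.055 to 0.28 for Gcg, -1.68 to 0.79 for Hba-a1, -0.24 to 0.011 for Ins2, -0.20 to 0.026 for Mdm1, -0.29 to 0.037 for Ppy, -8.76 to 0.019 for Pzp, -1.99 to 1.06 for Rarres2, -1.0 to 4.16 for Reg2 and -0.11 to 0.13 for Sst. The causes were not tested. For the 27 named genes that were called, 531 values under these settings held 386 on the same side of the threshold, 145 no longer past it and 0 of the other sign. The settings include the replicate block, whose class difference rests on WT4 and KO4 alone. With 3 exocrine-poor libraries, exact tests of shares cannot go below 0.0357.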
